A study of Dendrobium catenatum with 16 samples.

Results

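The AOP genes LOC110110694, LOC110110821 and LOC110110825, annotated as 2-oxoglutarate-dependent dioxygenases, were followed in Dendrobium catenatum, a medicinal orchid. LOC110110694 is described as probable AOP1.2 and the others as probable AOP1. They are 3 of 9 genes with an AOP description and 3 of 23063 features in the first count table and 28537 in the second. They were chosen on measured values, their fall in count with 6-BA in young plantlets, so their 6-BA values are a description and carry no test. RNA sequencing of poly(A) RNA covered 16 libraries from cultured plantlets, labelled as young leaves, stems and shoots. Seeds had been germinated on half-strength MS medium with sucrose, agar and potato. In the first experiment, plantlets 2 months old spent 3 weeks on medium to which was added distilled water, NAA (naphthaleneacetic acid, a synthetic auxin) at 0.1 mg/L, 6-BA (benzyladenine, a synthetic cytokinin) at 1 mg/L, or both at these doses. Each of these 4 groups has 2 libraries. In the second, plantlets 9 months old received 6-BA at 0, 0.5, 1 or 2 mg/L and were sampled after 2 or 4 weeks, with 1 library for each of the 8 conditions.

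Dioxygenases of this superfamily use iron and 2-oxoglutarate to oxidise small molecules, and plants use them to make and break hormones, flavonoids, alkaloids and other specialised metabolites. The AOP genes take their name from Arabidopsis, where AOP2 and AOP3 modify the side chains of glucosinolates, defence compounds of the cabbage order. The role of AOP1 is less settled there, and the substrates of the orchid genes are not known from these data. Cytokinins promote cell division and shoot growth, and cytokinin-treated tissue induces cytokinin dehydrogenases, which break the hormone down.

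Depth, as the summed count of a library divided by 1000000, was 34.3 to 74.5 at 2 months and 15.1 to 16.3 at 9 months. The labels call the pairs of libraries biological replicates without naming separate cultures, so the p-values rest on the spread between samples that may be technical. Within each of the 4 groups the replicates were not one library deposited again, since the chi-square between them was 16.8 to 28.6 per degree of freedom. Leaf markers (19 genes for chlorophyll a-b binding proteins and the small subunit of ribulose bisphosphate carboxylase) summed to 27310 to 34450 CPM (counts per 1000000 of the TMM-scaled library size) in the first experiment and 14550 to 35870 CPM in the second, where library totals were used. Cytokinin dehydrogenase 6 (LOC110105324), a record of the cytokinin response, stood at 0.664 and 0.374 CPM with water and at 22.6 and 19.4 CPM with 6-BA.

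Of the 3 genes, 2 are neighbours. LOC110110825 (6330661 to 6331859, minus strand) and LOC110110821 (6335511 to 6336692, minus strand) lie 3.65 kb apart on scaffold NW_021319309.1. The same scaffold holds a further pair of AOP1.2 genes, LOC110111510 (6291452 to 6293887, plus strand) and LOC110110824 (6349524 to 6350603, minus strand), and all 4 fall within 59.2 kb. LOC110110694 is the one AOP gene on scaffold NW_021318810.1 (465308 to 466488, minus strand). These positions are the authors' and equal those of RefSeq's assembly ASM160598v2 for each of the 3 genes, and no other annotated gene overlaps them. The transcript lengths the authors used were 777 bases for LOC110110694, 975 for LOC110110821 and 972 for LOC110110825. The sources used here do not say how reads shared by related copies were assigned, so single members of the family are uncertain to that extent.

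With 6-BA, the level left of each of the 3 genes was under 3% of that without it. In the water libraries LOC110110694 was counted at 95.2 and 163.0 CPM, in the NAA libraries at 188 and 115 CPM, in the 6-BA libraries at 0.400 and 1.74 CPM, and in those with both hormones at 1.26 and 1.00 CPM. Its lowest library without 6-BA was thus far above its highest library with 6-BA. The difference was -6.92 on the log2 scale (SE 0.50) against water, about 121-fold, and -7.05 (SE 0.49) when both hormones were set against NAA. From the lowest, these were ranks 6 and 2 of 19420 log2 fold changes. With 6-BA alone 0.829% of the water level was left, and with both hormones 0.746% of the NAA level.

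LOC110110821 was counted at 73.7 and 86.8 CPM in the water libraries, 171 and 107 CPM in the NAA libraries, 0.800 and 3.41 CPM in the 6-BA libraries, and 2.06 and 2.36 CPM in those with both. Its log2 difference was -5.26 (SE 0.45) for 6-BA against water and -5.98 (SE 0.45) for both hormones against NAA. The level left was 2.62% of water and 1.59% of NAA. LOC110110825, the least expressed of the 3, was counted at 23.3 and 21.2 CPM in the water libraries, 50.0 and 26.2 CPM in the NAA libraries, 0.382 and 0.487 CPM in the 6-BA libraries, and 1.63 and 0.448 CPM in those with both. Its log2 difference was -5.67 (SE 0.52) against water and -5.14 (SE 0.47) on NAA, with 1.95% and 2.73% of the level left. For each of the 3 genes the libraries with and without 6-BA did not overlap, but they were chosen on this fall, so nothing is read from it.

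**Figure D1:**
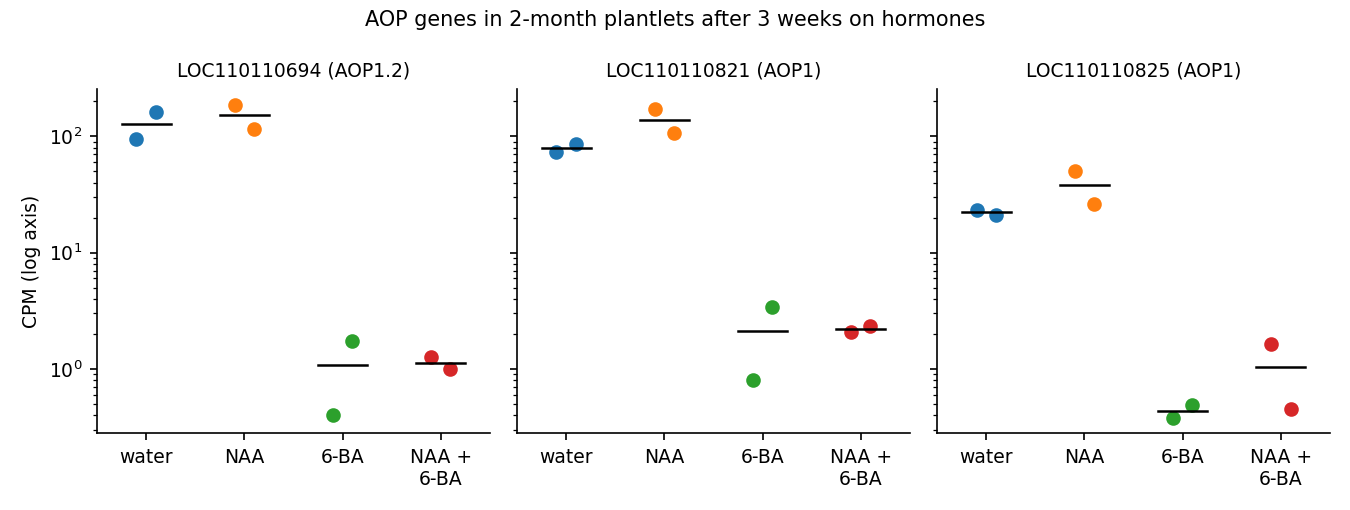
CPM on a log axis (vertical) of LOC110110694, LOC110110821 and LOC110110825 in the 8 libraries of the first experiment, by treatment (horizontal); points are libraries, left replicate 1 and right replicate 2, and lines are group means. The libraries with 6-BA lie at 0.382 to 3.41 CPM and those without at 21.2 to 188 CPM.

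All 3 genes were past the threshold (adjusted p under 0.05) in the lower direction in both 6-BA comparisons, where 4.2% of all 19420 genes were lower and 3.11% higher with 6-BA alone, and 3.64% lower and 1.94% higher with both hormones against NAA. Since these comparisons chose the genes, nothing is read from that count. The tissue is bulk, so fewer cells with the transcripts and less RNA per cell cannot be told apart. Over the 8 libraries the pairwise correlations of log2 CPM were 0.996 (LOC110110694 with LOC110110821), 0.976 (LOC110110694 with LOC110110825) and 0.970 (LOC110110821 with LOC110110825). This describes points that share the split by 6-BA.

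The residual levels with 6-BA differed between replicates. The second 6-BA library held 4.36 times the level of the first for LOC110110694, 4.26 times for LOC110110821 and 1.28 times for LOC110110825. Without that second library the difference against water was -8.33 for LOC110110694 and -6.65 for LOC110110821. Of the libraries with both hormones the first was the higher for LOC110110825, and without it the difference on NAA was -6.40. The 2 groups with 6-BA overlapped for each gene, and the mean with both hormones was 1.06 times (LOC110110694), 1.05 times (LOC110110821) and 2.39 times (LOC110110825) the mean with 6-BA alone.

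The comparison of NAA with water asks whether auxin alone alters these genes, and it was not used to choose them, although the water libraries are shared with the comparison that was. None of the 3 genes passed the threshold by edgeR, DESeq2 or limma, against a background of 1.41% of genes higher and 0.824% lower. LOC110110821 was higher in both NAA libraries than in either water library (0.80 on the log2 scale, SE 0.35, unadjusted p = 0.0476, adjusted p = 0.409 over 19420 genes, edgeR). LOC110110825 was also higher in both NAA libraries (0.78, SE 0.37, adjusted p = 0.467, edgeR). The groups overlapped for LOC110110694 (0.23, SE 0.35, adjusted p = 0.871, edgeR). Its direction turned without NAA replicate 1 (-0.16) or water replicate 1 (-0.10). Without NAA replicate 1 the difference was 0.42 for LOC110110821 and 0.24 for LOC110110825. The second NAA library held 0.614, 0.628 and 0.524 times the level of the first for LOC110110694, LOC110110821 and LOC110110825. In order of group means each gene ran NAA, water, both hormones, 6-BA. The groups with 6-BA overlapped each other for all 3 genes, and NAA and water overlapped for LOC110110694 alone of the 3. With 2 libraries a group, separation of NAA from water carries little weight, and the share of all genes that show it is not given here.

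Of the 6 other AOP genes 5 were tested, and 2 of them fell in both 6-BA comparisons. Over all genes 4.2% were lower with 6-BA alone and 3.64% with both hormones against NAA. LOC110111510 was lower with 6-BA, at 22.2 and 23.5 CPM against 91.6 and 102 CPM with water (-2.08, SE 0.18, adjusted p = 0.000275), and at 29.6 and 25.8 CPM with both against 168 and 109 CPM with NAA (-2.32, SE 0.18, adjusted p = 0.000189, both by edgeR). Its mean with 6-BA was 23.6% of the water mean, beside 0.829% to 2.62% for the 3 genes above. LOC110110824, a weakly expressed gene, was at 3.45 and 4.77 CPM with water and 0.0545 and 0.375 CPM with 6-BA (-4.25, SE 0.78, adjusted p = 0.0105, edgeR). That call was lost without water replicate 2 (-3.99) or 6-BA replicate 1 (-3.45) and under DESeq2 (adjusted p = 0.0604). On NAA it fell as well (-5.50, SE 0.82, adjusted p = 0.00422, edgeR), where the second library with both hormones held no read, under a floor of 0.0517 CPM set by 3 counts. Without the first, that library stands alone and the fitted value is -11.0, which depends on the prior count.

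The AOP1 genes of a second cluster, on scaffold NW_021319315.1, did not pass the threshold. LOC110107426, the highest of them, was at 104 and 88.4 CPM with water and 102 and 94.0 CPM with 6-BA (0.02, SE 0.13, adjusted p = 0.939, edgeR). LOC110107427 (0.16, SE 0.23) and LOC110107422 (-0.01) did not pass either. Under the 13 other settings tried in the first experiment, DESeq2 and limma among them, 0 of these 3 genes passed, and 0 had an unadjusted p under 0.05 by edgeR. The ninth gene, LOC110110945 (AOP3-like), had no read in any of the 16 libraries.

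**Figure D2:**
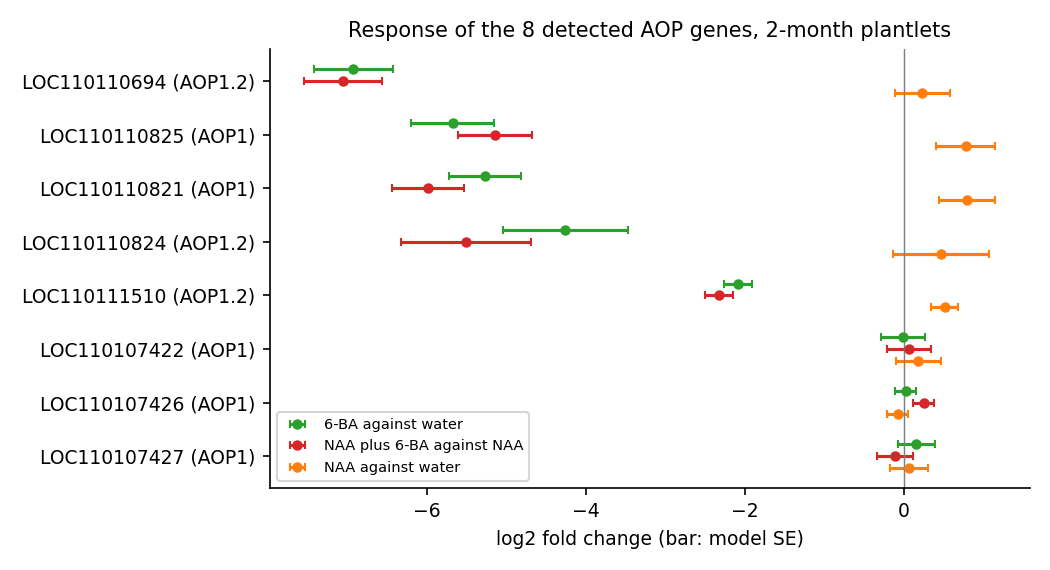
Log2 fold change (horizontal, bars are model standard errors) of the 8 AOP genes with reads (vertical) for 3 comparisons in 2-month plantlets, 2 libraries per group. The 5 genes at the top lie from -2.08 to -7.05 in the 6-BA comparisons, and the 3 below within 0.25 of no change.

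Levels between genes are compared per length, in the authors' FPKM. LOC110110694 stood at 122 and 210 FPKM with water, above 95.1% and 97.8% of genes with reads, and at 0.521 and 2.26 FPKM with 6-BA, above 9.15% and 19.7%. LOC110110821 stood at 75.1 and 89.0 FPKM and LOC110110825 at 23.8 and 21.8 FPKM with water. Summed over the AOP genes, the level was 440 and 544 FPKM in the water libraries, 762 and 519 FPKM in the NAA libraries, 125 and 126 FPKM in the 6-BA libraries, and 152 and 130 FPKM in those with both. The 3 genes made up 50.1% and 58.9% of it in the water libraries, 60.3% and 53.8% in the NAA libraries, 1.40% and 5.01% in the 6-BA libraries, and 3.64% and 3.21% in those with both. LOC110107426 went from 8.45% to 19.3% of the sum without 6-BA to 62.0% to 67.6% with it, while its own level stayed within 64.4 to 95.8 FPKM.

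**Figure D3:**
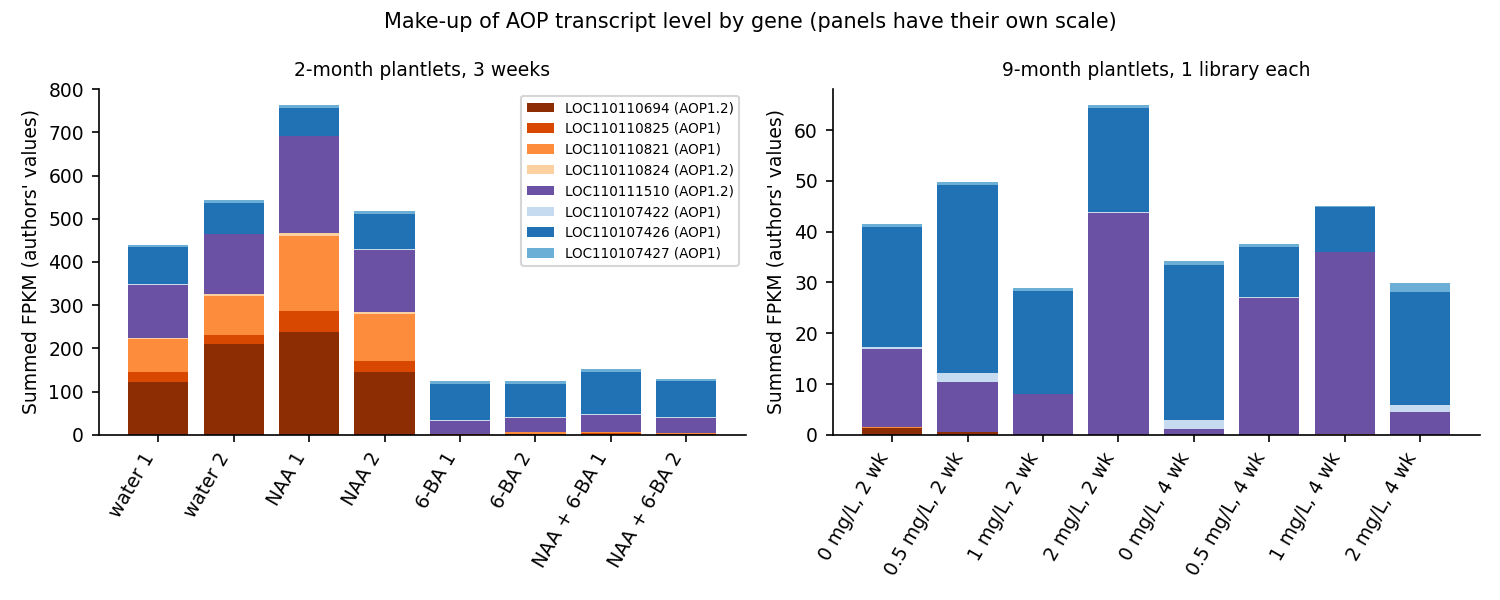
Summed FPKM of the AOP genes (vertical, bars start at 0, colours are genes) in each library (horizontal) of the first experiment (left) and the second (right), each panel on its own scale. The 3 genes form 50.1% to 60.3% of the bar in the libraries without 6-BA at 2 months and at most 5.01% in the others of that age.

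Genes next to the 3 were examined for a shared response. Within 100 kb of LOC110110694 lie 6 other genes, of which 2 were tested, and their log2 fold changes with 6-BA were both -0.29. Within 100 kb of LOC110110821 and LOC110110825 lie 18 genes without an AOP description, of which 6 were tested, from -0.27 to 0.36. Of these 8 tested genes, 0 passed the threshold by edgeR, DESeq2 or limma, with or without NAA. At an unadjusted p under 0.05 by edgeR there were 3 with 6-BA alone and 2 with both hormones against NAA. The share of all genes at that unadjusted threshold is not given here, so nothing is read from these counts. Of the 3 with 6-BA alone, 1 was higher and 2 lower. The 2 tested genes near LOC110110694 are LOC110109838, calcineurin B-like protein 1 (-0.286, SE 0.103, adjusted p = 0.141, edgeR), and LOC110110692, monosaccharide-sensing protein 2-like (-0.293, SE 0.093, adjusted p = 0.0979, edgeR). On NAA they were at 0.02 and -0.25. Also among the 8 is LOC110110822, homeobox protein knotted-1-like 6, a class of shoot meristem regulators (0.36, SE 0.12, adjusted p = 0.106, edgeR). LOC114580164, described as a gibberellin 2-beta-dioxygenase, sits between LOC110110821 and LOC110110824 and had too few reads to be tested.

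**Figure D4:**
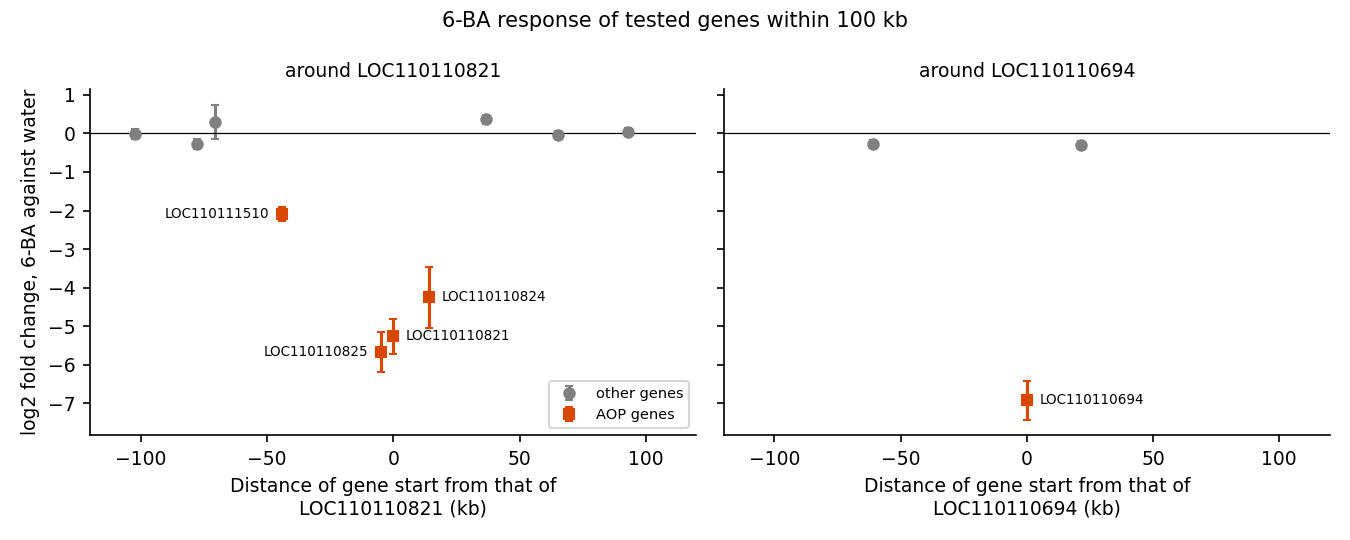
Log2 fold change for 6-BA against water (vertical, bars are model standard errors) of each tested gene against the distance of its start in kb from that of LOC110110821 (left) or LOC110110694 (right). The AOP genes (squares) lie at -2.08 to -6.92 and the other genes (circles) between -0.29 and 0.36.

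A list of 89 dioxygenases of the superfamily, drawn from the authors' descriptions, gives the wider setting, and 86 of them are not among the 3 genes. Of these, 75 were tested with 6-BA against water. In total 6 (8.0%) were higher and 15 (20.0%) lower, beside 3.11% and 4.2% of all genes, with a median log2 fold change of -0.06, beside 0.00 over all genes. The count higher was 3 without either water library or the second 6-BA library and 2 without the first 6-BA library, and the count lower was 9 without either 6-BA library. Over all genes both counts were smaller too in these fits, which leave a single library in a group. With both hormones against NAA, 5 (6.67%) were higher and 18 (24.0%) lower, beside 1.94% and 3.64% of all genes (median -0.14). The count higher fell to 0 without the second library with both hormones, and was 2 without the first or without NAA replicate 1, and 3 without NAA replicate 2 or 6-BA replicate 1. The count lower was smaller without NAA replicate 1. Over all genes the same counts were smaller in these fits as well, except that the count higher was larger without NAA replicate 2.

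Genes described as DAO, dioxygenases that in Arabidopsis and rice inactivate auxin by oxidation, made up part of these counts, and the same shares of all genes stand beside theirs. Of 8 tested, 6 fell and 1 rose with 6-BA alone (median -3.19), and 7 fell with both hormones against NAA (median -2.97). The 6 were 5 without either water library, 4 without 6-BA replicate 1 and 3 without 6-BA replicate 2, and the 1 that rose was lost without either water library or 6-BA replicate 1. The 7 were 4 without NAA replicate 1 or without either library with both hormones. Counts over all genes were smaller too in these fits. LOC110105848 (DAO-like) fell from 43.2 and 42.7 CPM with water to 6.30 and 6.86 CPM with 6-BA (-2.71, SE 0.13, adjusted p = 1.25e-05, edgeR), and LOC110115800 (DAO) from 5.72 and 6.56 to 0.527 and 0.431 CPM (-3.67, SE 0.28, adjusted p = 0.000141, edgeR). On NAA, LOC110105848 fell again (-2.90, SE 0.13, adjusted p = 9.38e-06, edgeR). With NAA against water 0 of the 8 passed by edgeR, DESeq2 or limma, and 1 had an unadjusted p under 0.05 by edgeR. The share of all genes at that unadjusted threshold is not given here. In limma's fit of log2(FPKM + 1) the median with 6-BA was -0.99 and 4 genes fell. The DAO genes include neighbours on 2 scaffolds, between which reads may be shared.

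Counts in the other classes with 6-BA were as follows, beside 3.11% of all genes higher and 4.2% lower. Of 15 gibberellin genes, which make or inactivate that hormone, 1 rose and 2 fell. Of 7 ethylene-forming oxidases 1 rose and 1 fell, of 10 flavonoid genes 1 rose and 1 fell, and of 6 defence and jasmonate genes 1 rose and 2 fell. Of 13 genes of the alkaloid and coumarin type 1 rose, and of 11 generic ones 1 fell. The gibberellin and flavonoid genes that rose, 1 of the 2 gibberellin genes that fell, and the ethylene and generic genes that fell each lost their call when one or another water or 6-BA library was left out. With both hormones against NAA, 1.94% of all genes were higher and 3.64% lower. Beside that, 2 gibberellin genes rose and 3 fell, and 2 alkaloid and coumarin genes rose and 1 fell. In the same comparison 1 ethylene gene rose, and 1 flavonoid, 2 defence and jasmonate and 2 generic genes fell. Each of those that rose lost its call when one or another library was left out. So did LOC110096318 (gibberellin), LOC110092338 (alkaloid and coumarin type), LOC110101392 and LOC110102493 (both generic) among those that fell. DMR6-LIKE OXYGENASE 2 genes, whose Arabidopsis relatives act on the defence hormone salicylic acid, went both ways. LOC110099900 rose from 41.6 and 25.6 to 73.0 and 107 CPM (1.42, SE 0.22, adjusted p = 0.00522, edgeR), and LOC110104715 fell from 16.3 and 19.4 to 4.92 and 5.43 CPM (-1.79, SE 0.15, adjusted p = 0.00024, edgeR). On NAA, LOC110104715 fell again (-2.05, SE 0.15, adjusted p = 0.000164, edgeR). The ethylene-forming 1-aminocyclopropane-1-carboxylate oxidase LOC110105140 rose by 0.65 (SE 0.10, adjusted p = 0.00542, edgeR). S-norcoclaurine synthase 1-like LOC110106264 rose by 0.98 (SE 0.18, adjusted p = 0.00976, edgeR), which did not pass when water replicate 2 (0.92) or one of the 6-BA libraries (0.96 and 1.005) was left out.

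On NAA, the members of the list that rose with the lowest p were gibberellin 2-beta-dioxygenase 1 (LOC110103098), which inactivates gibberellins (0.69, SE 0.14, adjusted p = 0.0193, edgeR), 1-aminocyclopropane-1-carboxylate oxidase 1 (LOC110105328, 1.09, SE 0.24) and S-norcoclaurine synthase 1-like LOC110101972 (2.16, SE 0.48). Each call was lost without NAA replicate 1 (0.55, 0.80 and 1.66) or the second library with both hormones (0.51, 0.82 and 2.34), and that of LOC110101972 also without the first (1.94). With NAA against water edgeR called 3 of 75 (4.0%) higher and 0 lower, beside 1.41% and 0.824% of all genes. At an unadjusted p under 0.05 by edgeR 10 were higher and 3 lower, and the share of all genes at that threshold is not given here. DESeq2 called 3 higher and 1 lower, and limma 1 higher and 0 lower. The 3 that edgeR called higher were gibberellin 2-beta-dioxygenase 8-like LOC110108465 (2.29, SE 0.27, adjusted p = 0.00306, edgeR), LOC110107557 of the generic class (4.10, SE 0.85, adjusted p = 0.0414, edgeR) and gibberellin 3-beta-dioxygenase 1-like LOC110111963 (1.23, SE 0.26, adjusted p = 0.0438, edgeR). LOC110107557 was near the floor, at 0.0766 and 0.0998 CPM with water and 0.630 and 2.50 CPM with NAA. For that gene limma gave 0.895 and no call. The calls of LOC110107557 and LOC110111963 were lost without either water library, NAA replicate 2 or either 6-BA library, at 2.80 to 4.30 and 1.005 to 1.505. That of LOC110111963 was also lost without NAA replicate 1 (1.38), and that of LOC110107557 without either library with both hormones (4.10 in each).

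Root markers were examined because the labels list no roots. They are genes described as SHORT-ROOT, SCARECROW, casparian strip or ROOT HAIR DEFECTIVE. Of 18 root genes 15 are in the first count table and 14 were tested. Their sum was 366 to 380 CPM with water, 353 to 386 CPM with NAA, 392 to 397 CPM with 6-BA and 369 to 374 CPM with both, and 14 or 15 of them had reads in each library. ROOT HAIR DEFECTIVE 3 gene LOC110110270 alone was at 141 and 160 CPM with water. Whether the listed genes are specific to roots was not checked, so the sum and median do not show whether root content changed. By edgeR 2 of the 14 fell and 1 rose with 6-BA (median log2 fold change -0.00059), beside 4.2% of all genes lower and 3.11% higher. SHORT-ROOT-like LOC110095590, of a family that patterns the root ground tissue, fell from 3.45 and 3.94 to 1.05 and 1.01 CPM (-1.84, SE 0.26, adjusted p = 0.00326, edgeR). Casparian strip membrane protein 2-like LOC110102706, of a family that builds the root barrier, fell from 2.32 and 3.29 to 0.709 and 1.25 CPM (-1.52, SE 0.39, adjusted p = 0.0483, edgeR), a call lost when any library other than those with NAA alone was left out. SCARECROW 1 (LOC110109011) rose by 0.42 (SE 0.11, adjusted p = 0.0401, edgeR), a call lost in the same way. Both that fell were also lower with both hormones against NAA (-2.04 and -1.98), the latter a call lost without NAA replicate 2 or either library with both hormones. The part of these root genes in the fall of the 3 AOP genes was not tested. Of 19 leaf genes 1 was higher with 6-BA, and of 60 division and meristem genes 1 was higher and 2 lower, to be read beside the same shares of all genes.

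The genes most like the 3 over the 8 libraries were sought among 17129 genes by the Pearson correlation of log2 CPM with their mean pattern, a measure that the split by 6-BA dominates. First came mannan endo-1,4-beta-mannosidase 2-like LOC110100371, which cuts mannan chains (0.997). It was followed by 2 genes described as clavaminate synthase-like, LOC114579138 (0.995) and LOC110112065 (0.994), then by the DAO-like LOC110105848 (0.993) and BURP domain-containing protein 3-like LOC110115695 (0.993). LOC110112065 went from 210 and 254 CPM with water to 8.96 and 13.0 CPM with 6-BA, a log2 difference of -4.40. Bacterial clavaminate synthase is itself an enzyme that uses 2-oxoglutarate, while the substrates of the plant proteins named after it are not given here. Of the AOP genes, LOC110111510 was at rank 11 (0.988) and LOC110110824 at rank 408 (0.910).

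In the second experiment few reads of the 3 genes were counted. LOC110110694 had 17 reads at 0 mg/L and 7 reads at 0.5 mg/L in week 2, and 0 in the other 6 libraries. This is 1.09 CPM (95% exact Poisson interval 0.633 to 1.74) and 0.433 CPM (0.174 to 0.891), where 3 counts give a limit of 0.184 to 0.199 CPM for libraries with none. Such intervals cover counting error only. LOC110110821 had 2 reads at 0 mg/L in week 2 and 1 read at 1 mg/L in week 4, and LOC110110825 had 0 in all 8. Untreated plantlets of 2 months had 95.2 and 163.0 CPM of LOC110110694, in a separately made count table from another experiment, so age and experiment cannot be told apart. In week 2 the limits at 1 and 2 mg/L (0.194 and 0.187 CPM) lay under the interval at 0 mg/L, with 1 library each and no replicate check. In week 4 the gene was not detectable at any dose, 0 mg/L included.

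None of the 3 passed the filter on low counts in the second experiment, so the planned tests gave no value for them. With the filter dropped, edgeR gave LOC110110694 a log2 change of -2.52 for any dose (SE 1.74, adjusted p = 0.877), -3.44 per mg/L (SE 1.05, adjusted p = 1.0) and -5.40 for week 4 against week 2 (SE 2.09, adjusted p = 0.901). The background was 0.0% in each comparison: of 21267 genes, edgeR called 0 for any dose (498 at an unadjusted p under 0.05, 6 by DESeq2), 0 for the dose slope (430 and 5) and 0 for the week (1116 and 82). In the dioxygenase list 0 of 63 tested passed for any dose by edgeR, DESeq2 or limma, and 2 had an unadjusted p under 0.05 by edgeR.

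The genes with the most similar pattern in young plantlets gave more reads in the second experiment. In week 2, LOC110112065 stood at 45.8, 21.4, 1.49 and 0 CPM at 0, 0.5, 1 and 2 mg/L, and LOC110100371 at 17.5, 7.48, 1.10 and 1.06 CPM. LOC110105848 stood at 12.2, 6.61, 1.75 and 2.37 CPM, LOC114579138 at 0.830, 0.742, 0.129 and 0.125 CPM, and LOC110115695 at 15.8, 26.5, 0.259 and 0.125 CPM. All 5 were thus lower at 1 and 2 mg/L than at 0 and 0.5 mg/L in that week, as LOC110110694 was. The share of all genes with that order is not given here. Marker sums in week 2 split between the same libraries. In order of dose they were 317.9, 397.5, 269.0 and 272.5 CPM for root and 2619, 2699, 2295 and 2248 CPM for division and meristem. For leaf they rose, at 26980, 28480, 31090 and 35870 CPM. Their part in the order of these genes was not tested. In week 4 no such order was seen: at 0 mg/L LOC110112065 was at 0.590 CPM and LOC110100371 at 0.394 CPM, and with 6-BA they were at 0.257 to 0.928 and 0.431 to 2.25 CPM. LOC110115695 was lower at every dose than at 0 mg/L, at 9.18, 0.184, 2.39 and 3.015 CPM in order of dose. In the same order LOC110105848 was at 1.84, 3.81, 5.90 and 1.28 CPM, and LOC114579138 at 0.197, 0.369, 0.0663 and 0.257 CPM. These are single libraries and none of the 5 passed the test for any dose, so no difference is called.

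**Figure D5:**
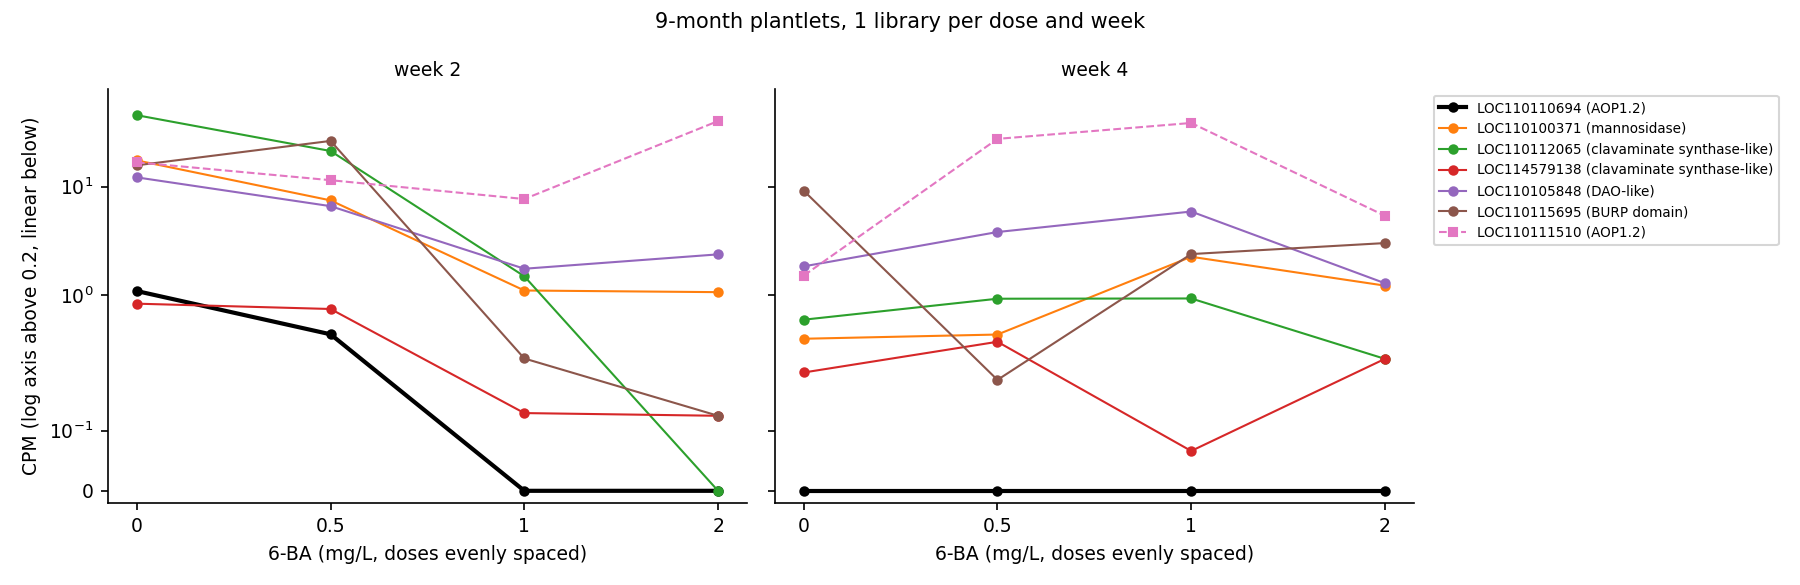
CPM (vertical, log above 0.2 and linear below) at each 6-BA dose (horizontal, evenly spaced) in week 2 (left) and week 4 (right) of 9-month plantlets, for LOC110110694, the 5 genes with the most similar pattern in young plantlets, and LOC110111510 (dashed); each point is 1 library. In week 2 the solid lines are lower at 1 and 2 mg/L than at 0 and 0.5 mg/L, and LOC110110694 goes from 1.09 CPM to 0.

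LOC110111510 and LOC110107426 carried most AOP reads at 9 months. LOC110111510 was at 16.8, 11.5, 7.70 and 40.4 CPM in week 2 and at 1.51, 27.7, 38.8 and 5.39 CPM in week 4, at 0, 0.5, 1 and 2 mg/L. In week 4 it was thus 18.4, 25.7 and 3.57 times the level at 0 mg/L, which itself rests on 23 reads (0.956 to 2.26 CPM). The test for any dose did not pass (1.67, SE 1.26, adjusted p = 0.856, edgeR). LOC110107426 was at 29.2, 48.3, 22.2 and 21.5 CPM in week 2 and at 42.8, 11.5, 10.7 and 31.0 CPM in week 4 (-0.57, SE 0.46, adjusted p = 0.856, edgeR). Marker sums also differed between the week 4 libraries. In order of dose they were 522, 290, 315 and 509 CPM for the root list and 3100, 2324, 2734 and 3089 CPM for division and meristem. For leaf they were 16330, 19850, 21090 and 14550 CPM. Their part in the AOP levels was not tested. Cytokinin dehydrogenase 6 was above its 0 mg/L level at every dose, at 0.192 against 2.35, 1.62 and 0.936 CPM in week 2 and at 0.328 against 0.800, 11.3 and 4.04 CPM in week 4 (3.67, SE 1.12, adjusted p = 0.856, edgeR). Its level at 0 mg/L rests on 3 reads in week 2 and 5 reads in week 4.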

How the data were processed

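Samples were grouped by the hormone, dose, age and time in the labels, and no library was left out. Per the submitters' processing notes, the tools were HISAT2 2.0.6, edgeR with no version named, and Cufflinks 2.2.2. Which tool gave which table, the build, the annotation release and strandedness were not given in the sources at hand. The deposited tables hold raw counts per gene. The authors also deposited FPKM, which in the first experiment equal counts scaled by gene length and library total, and gene positions and lengths in bases, per the file headers.

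Counts were tested in R 4.3.3 with edgeR 4.0.16 (filterByExpr, TMM, quasi-likelihood test, Benjamini-Hochberg at 0.05), with 4 group means in the first experiment (19420 genes) and with week plus dose in the second (21267 genes), where no condition is replicated. The biological coefficient of variation was 0.115 and 0.499 (0.518 for the dose slope). The fits were tested on simulated counts. CPM used TMM-scaled sizes in the first experiment and library totals in the second. DESeq2 1.42.0, limma 3.58.1 on log2(FPKM + 1), other scaling, no filter, the replicate block and each library left out were alternatives. Python 3.11.15 with pandas 2.3.3 and Matplotlib 3.10.9 made tables and plots.

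The 3 genes and the lists were chosen with earlier results of these data known. Named were the AOP genes, the 3 listed dioxygenases with the lowest p per direction and comparison, the 5 genes most alike (mean log2 CPM of at least 1, prior count 0.5), called neighbours within 100 kb and cytokinin dehydrogenase 6; other genes were named after their values were seen. Of 26185 gene numbers, 26064 were found in RefSeq with the same start and end. Likeness over the second experiment could not be computed, since LOC110110825 had no read there. Protein and promoter sequences were not analysed here.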

Additional observations from a re-analysis of the deposited data

Results flagged for a closer look

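LOC110111510 (AOP1.2) differed in direction between 2-month plantlets and week 4 of 9-month plantlets. Both 6-BA libraries of 2-month plantlets were below their controls, without NAA (-2.08 on the log2 scale) and with NAA (-2.32), while all 3 doses at week 4 in 9-month plantlets were above 0 mg/L, with a log2 ratio of means of 3.99 in either pairing. In week 2 at 9 months it was below 0 mg/L at 0.5 and 1 mg/L (0.684 and 0.458 times) and above it at 2 mg/L (2.41 times). The difference was not tested, and age and experiment cannot be told apart. The ratio at week 4 rests on a single control library of 23 reads.

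LOC110107426 (AOP1) was above NAA in both libraries with both hormones at 2 months (0.25) and below 0 mg/L at all 3 doses in week 4 at 9 months (-1.27). LOC110107422 was above the NAA mean in both libraries with both hormones, although not above both NAA libraries (0.07), and below 0 mg/L at all 3 doses in week 4 (-1.87), on few reads. LOC110107427 was above water in both 6-BA libraries at 2 months (0.16) and below 0 mg/L at all 3 doses in week 2 at 9 months (-0.53), also on few reads. None of these 3 genes passed a 6-BA test, and these differences between ages were not tested.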

How the results depend on the processing

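In the first experiment the 3 genes were lower with 6-BA under each of 13 alternatives. They were chosen on this fall in the same libraries, so its direction here is no support, and the ranges only describe its size. Leaving out 1 library at a time gave LOC110110694 -8.33 to -6.21 against water and -7.36 to -6.65 on NAA, LOC110110821 -6.65 to -4.56 and -6.28 to -5.60, and LOC110110825 -5.86 to -5.51 and -6.40 to -4.55. On the log2(FPKM + 1) scale, which understates low genes, limma gave LOC110110825 -4.04 against water, and LOC110110694 -6.24 and LOC110110821 -5.38 on NAA. With NAA against water the ranges were -0.16 to 0.67 (LOC110110694, which reversed to -0.16 and -0.10 without replicate 1 of NAA or of water), 0.42 to 1.09 (LOC110110821) and 0.24 to 1.17 (LOC110110825), none past the threshold (lowest adjusted p over the leave-outs 0.0901). A single remaining library was assumed to vary like the other groups.

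With 1 library left out, the dioxygenase list had 2 to 7 higher and 9 to 16 lower with 6-BA, 0 to 6 and 11 to 20 with both hormones against NAA, and 1 to 2 and 0 to 1 with NAA against water, where limma gave 1 higher and DESeq2 and the replicate block 1 lower. Over all genes the counts with 6-BA ran from 174 to 785 higher and 320 to 913 lower, those with both hormones against NAA from 110 to 447 and 277 to 727, and those with NAA from 77 to 297 and 35 to 190. DESeq2 called 918 higher with 6-BA, 690 with both against NAA, and 466 higher and 318 lower with NAA, over 1.5 times edgeR's 604, 376, 274 and 160, and 3 higher and 3 lower for any dose at 9 months. Causes were not tested.

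Replicate numbers did not pair the libraries (correlation of deviations -0.123 to 0.189). With the replicate block the 6-BA differences were -6.92, -5.28 and -5.70 for LOC110110694, LOC110110821 and LOC110110825, and the NAA differences 0.28, 0.82 and 0.69. At 9 months the count filter removed the 3 genes. Without the filter, edgeR gave LOC110110821 -1.79 for any dose, -1.16 per mg/L and -0.35 for the week (adjusted p 0.877, 1.0 and 0.982), on 3 reads, and LOC110110825 had no read. The labels give no replicate numbers there, and week was a term of the fit. Depth at 9 months sets the limit for a gene with no read at 0.184 to 0.199 CPM.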
